A study of Rattus norvegicus with 9 samples.

Results

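The genes described here are 37 rat genes of the cell cycle and of DNA replication, given as a list of names. Of these, 36 had a row among the 35843 genes of the deposited table, and the expression of Ccnb2 was not analysed here. They were divided by what their proteins do into 10 genes of DNA replication and S phase and 26 genes of mitosis.

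RNA of the left ventricle was sequenced at day 28 from 3 adult male Sprague-Dawley rats in each of 3 groups, Sham, MI and MI + DAPA (1st d). In both of the last groups the left anterior descending coronary artery had been tied off for good, a model of myocardial infarction, whereas rats of group Sham had the operation without the ligation. Rats of group MI + DAPA (1st d) received dapagliflozin (DAPA), an inhibitor of the sodium-glucose cotransporter SGLT2, at 1 mg/kg by gavage every day from the first day, and rats of both other groups received saline by the same route. Molecular work in the study was done mainly on tissue at the border of the infarct, with the scar cut away. In group Sham the matching place was taken. For the RNA sequencing the study names left ventricles, and infarct myocardium in both infarcted groups, and does not say whether scar was included. The RNA thus comes from a mixture of heart cells. In such bulk RNA, fewer dividing cells and less RNA per dividing cell cannot be told apart.

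A cell that divides first copies its DNA. The MCM helicase opens the double helix, the sliding clamp PCNA holds the polymerases on it, and ribonucleotide reductase and thymidylate synthase supply nucleotides. In mitosis, Cdk1 bound to cyclin A or B starts the process, the Aurora and Polo kinases and the kinesins build the spindle, the checkpoint proteins hold the anaphase-promoting complex back until the chromosomes are attached, and Prc1 and Kif23 act in cytokinesis. Adult cardiomyocytes rarely divide, whereas fibroblasts, endothelial cells, leukocytes and early red cell precursors can. Genes of mitosis often carry a CCAAT box and a cell cycle homology region (CHR) near their start, and genes of replication often carry an E2F site.

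Promoters were read from RefSeq on build GRCr8, from 250 bases before to 50 bases after the annotated start, and 29 of the 37 genes had an entry. Ccnb2 was among these 29 and was counted here with the mitosis genes. A CCAAT box (CCAAT, either strand) was found in 23 of the 29 promoters, against 37.7% of all 27457 promoters. A CHR (TTTGAA or TTTAAA, either strand) was found in 22 of 29, against 27.9%. An E2F site (TTTCCCGC, TTTCGCGC, TTTGCCGC or TTTGGCGC, either strand) was found in 7 of 29, against 2.25%. Both a CCAAT box and a CHR were found in 17 of 22 promoters of mitosis genes and in 0 of 7 promoters of replication genes, against 11.1% of all promoters. The E2F letters were found in 6 of 7 promoters of replication genes (Mcm2, Mcm3, Mcm5, Mcm6, Mcm7 and Tyms) and in 1 of 22 promoters of mitosis genes (Cdk1). These matches describe letters and not bound sites.

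The 150 bases before the start are printed for 5 mitosis genes whose levels are described below and for Mcm2 as a replication gene, on the strand of the gene, to show how the motifs lie. Capitals mark the letters of the CCAAT box, the CHR and the E2F site. In Cdk1 the capitals are, from left to right, an E2F site, a CCAAT box read on the other strand, a CHR, a further CCAAT box on the other strand and a CHR 16 bases before the start. In Prc1 a CCAAT box begins 50 bases before the start and a CHR 18 bases before it. In Cdc20 a CHR lies between 2 CCAAT boxes. In Nusap1 a CCAAT box is followed by a CHR, Kif2c has a CHR alone, and in Mcm2 the capitals are 2 E2F matches on opposite strands that share 4 letters.
Cdk1, chr20:19265143-19265292, plus strand: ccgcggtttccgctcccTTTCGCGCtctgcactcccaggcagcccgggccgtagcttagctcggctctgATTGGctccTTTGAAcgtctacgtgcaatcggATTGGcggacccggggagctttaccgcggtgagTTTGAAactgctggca
Prc1, chr1:143659331-143659480, plus strand: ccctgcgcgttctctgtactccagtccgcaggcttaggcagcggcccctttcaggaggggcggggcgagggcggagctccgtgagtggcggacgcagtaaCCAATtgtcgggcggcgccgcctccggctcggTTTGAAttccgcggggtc
Cdc20, chr5:137255800-137255949, minus strand: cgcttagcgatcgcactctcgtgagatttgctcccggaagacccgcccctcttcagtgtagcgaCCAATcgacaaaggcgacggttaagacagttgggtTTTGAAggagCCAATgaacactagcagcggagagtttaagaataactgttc
Nusap1, chr3:127057145-127057294, plus strand: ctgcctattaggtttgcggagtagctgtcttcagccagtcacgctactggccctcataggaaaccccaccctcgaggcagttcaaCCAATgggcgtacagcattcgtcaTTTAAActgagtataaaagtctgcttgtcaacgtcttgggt
Kif2c, chr5:135899213-135899362, minus strand: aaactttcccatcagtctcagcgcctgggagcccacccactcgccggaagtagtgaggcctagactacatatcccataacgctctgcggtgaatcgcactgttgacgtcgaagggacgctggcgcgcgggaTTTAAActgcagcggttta
Mcm2, chr4:122918095-122918244, minus strand: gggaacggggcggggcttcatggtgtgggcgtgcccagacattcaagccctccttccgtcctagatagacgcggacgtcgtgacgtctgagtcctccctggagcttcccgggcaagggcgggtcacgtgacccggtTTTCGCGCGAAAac

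Expression was deposited as FPKM, that is reads divided by the length of the gene and by a library size set by the authors, and the whole reads behind the values were recovered. The libraries held 13597239 to 17210909 reads, of which genes of the mitochondrial genome took 61.1% to 66.9% in group Sham, 7.07% to 19.1% in group MI and 17.5% to 32.0% after DAPA. Other genes were therefore read at 5702454 to 6570698 reads in group Sham and at 11440726 to 13171891 reads in the other groups. Cardiomyocyte markers had a summed FPKM of 6738 to 9944 in group Sham, 2057 to 10170 in group MI and 7848 to 16501 in group MI + DAPA (1st d) and were thus present in every rat. Of the endothelial markers, Cldn5 was at 0 in every rat.

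One library stood apart in the cell cycle genes. Sham replicate 2 was the highest of the 9 rats in 32 of the 36 genes, and the other 4, Mcm2, Mcm4, Rrm2 and Tyms, were highest in MI replicate 2. Among genes that reached 1 FPKM in 3 or more of the 9 rats, Sham replicate 2 was highest in 28 of 32 members and in 20.0% of all 14157 genes. It lay more than 2-fold above the mean of Sham replicates 1 and 3 in 28 of the 36 members, and in 24 of the 32 that passed that filter, against 6.39% of all genes passing it. The ratio had a median of 3.17 over the members and 0.983 over all genes. For mitosis genes the median ratio was 3.69 and for replication genes 1.98, the range being 1.39 (Kif2c) to 7.61 (Pbk) in the former and 1.15 (Pcna) to 3.23 (Mcm3) in the latter, leaving aside Rrm2, which had 24 reads in Sham replicate 2 and 2 and 0 reads in Sham replicates 1 and 3.

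**Figure D1:**
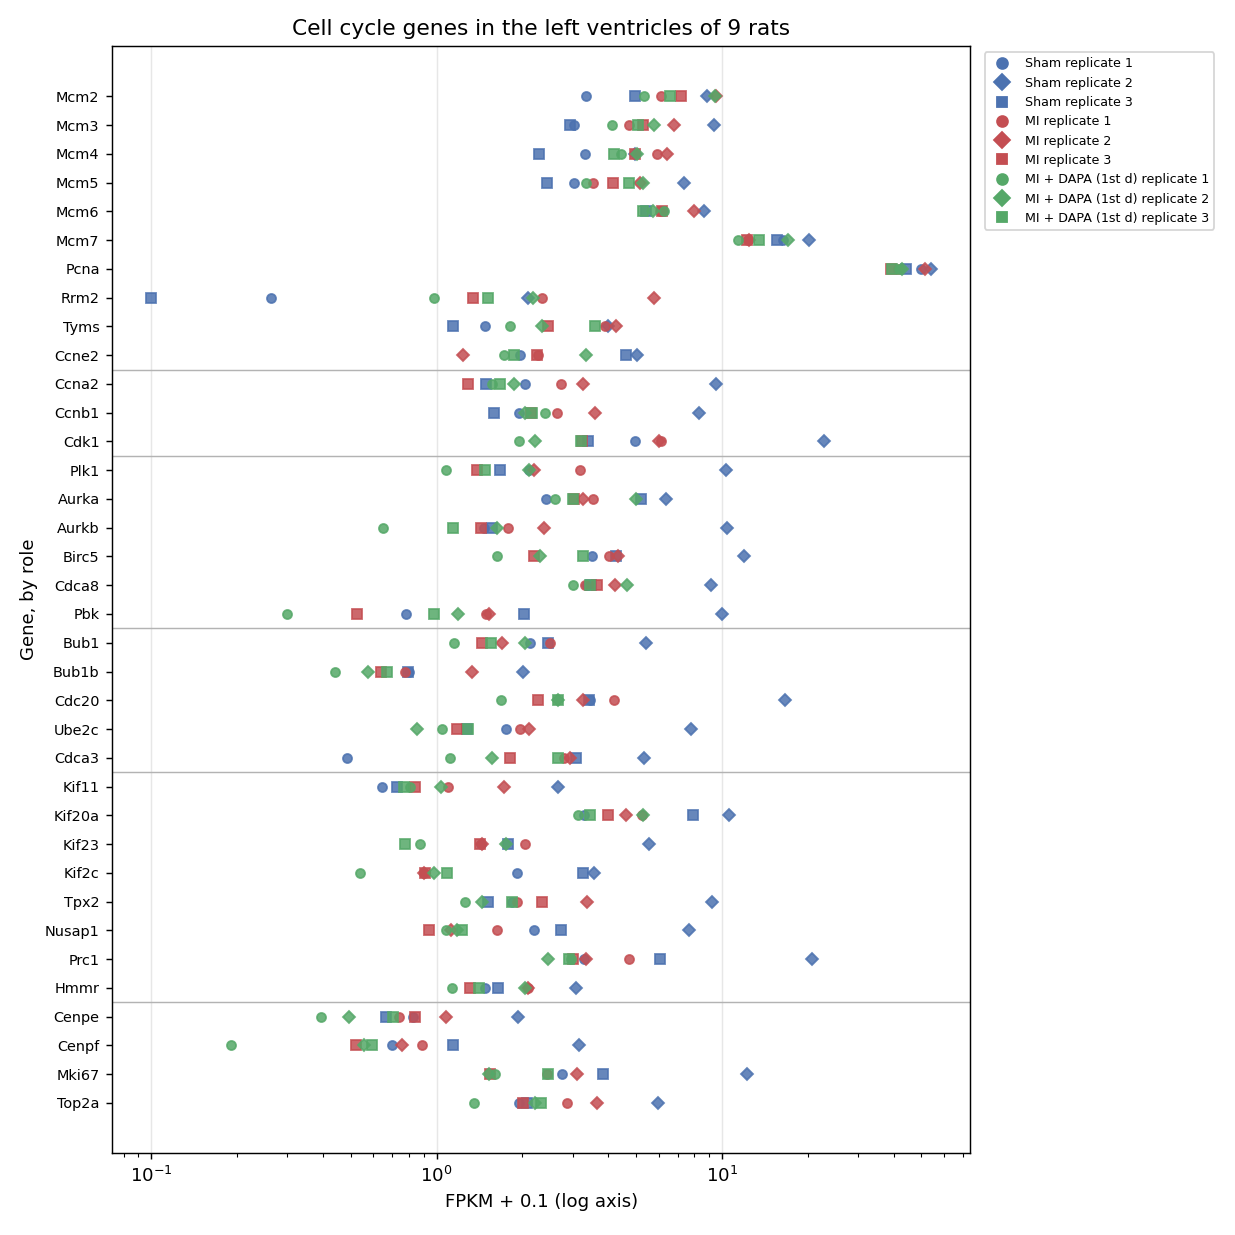
FPKM + 0.1 on a log axis for each of the 36 genes in each of the 9 rats, with genes grouped by role from replication (top) to chromosome structure (bottom), colours for groups and marker shapes for replicates. The blue diamonds of Sham replicate 2 lie farthest to the right in 32 genes.

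Markers of other cell types also differed in that rat. Summed FPKM of the 4 erythroid markers (Hba-a1, Hba-a2, Hbb and Alas2) was 290.4 in Sham replicate 1, 5780 in Sham replicate 2 and 719.6 in Sham replicate 3, 768.3 to 1304 in group MI and 13.2 to 489.3 in group MI + DAPA (1st d). Alas2, which starts haem synthesis in red cell precursors, was at 0.546, 8.69 and 1.04 FPKM in Sham replicates 1, 2 and 3, and at 0 in MI + DAPA (1st d) replicate 1. Smooth muscle and pericyte markers went the other way, with summed FPKM of 1413, 333.2 and 1176 in Sham replicates 1, 2 and 3. Endothelial markers were also lower there, at 616.4, 424.4 and 691.7 in the same order. T cell markers summed to 19.6, 28.1 and 12.5, and B and plasma cell markers to 3.90, 9.58 and 3.41. Of these, 5 of 8 and 3 of 5 were highest of group Sham in replicate 2. Reads of the 2 alpha globin genes may have been split between near-identical copies. All 4 erythroid markers were highest in Sham replicate 2, as all 26 mitosis genes were. The part of these cells in the levels of the cell cycle genes was not tested.

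**Figure D2:**
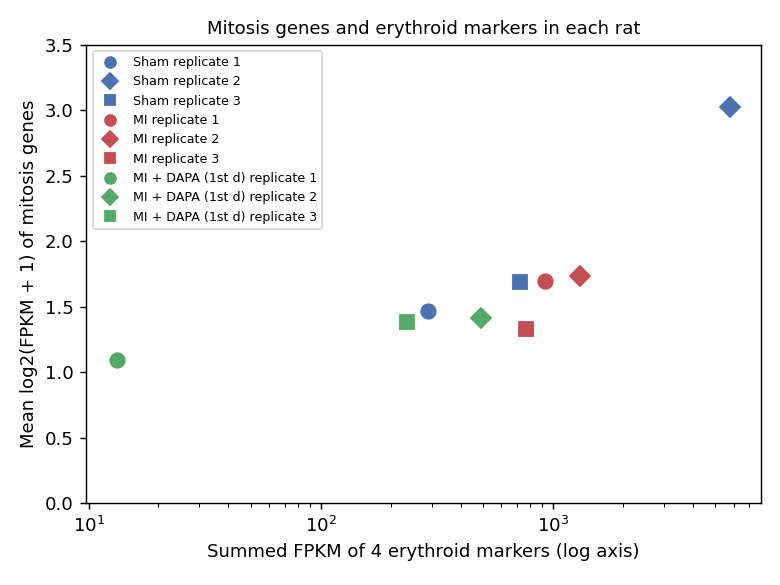
Mean log2(FPKM + 1) of the 26 mitosis genes against the summed FPKM of the 4 erythroid markers (log axis), 1 point per rat. Sham replicate 2 is at the upper right with a mean of 3.02, and MI + DAPA (1st d) replicate 1 is at the lower left with a mean of 1.10.

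MI replicate 2 stood apart in leukocytes. Its T cell markers summed to 274.9 FPKM against 64.0 and 93.5 in MI replicates 1 and 3, its B and plasma cell markers to 3108 against 25.3 and 541.9, its macrophage markers to 1547 against 807.7 and 823.6, and its cardiomyocyte markers to 2057 against 5435 and 10170. It was the highest of the 3 rats of group MI in 23 of 36 cell cycle genes, that is in 9 of 10 replication genes and 14 of 26 mitosis genes. The share over all genes was not counted for this. MI replicate 1 was highest in 11 of 26 mitosis genes, so these did not set MI replicate 2 apart. MI replicate 3 was the lowest of group MI in 27 of 36 cell cycle genes, against 35.2% of all genes that reached 1 FPKM in 3 or more of the 9 rats. Values without Sham replicate 2 or MI replicate 2 stand beside the main results below.

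The mean log2(FPKM + 1) of the 26 mitosis genes was 1.47, 3.02 and 1.69 in Sham replicates 1, 2 and 3, 1.70, 1.74 and 1.33 in group MI, and 1.10, 1.42 and 1.39 in group MI + DAPA (1st d). Over the 3 rats of each group the SD was 0.84, 0.23 and 0.18 in the same order. Group MI overlapped with both other groups, the DAPA-treated rats lay just below the lowest rat of group Sham, and the spread within group Sham was larger than the differences between the groups. For the 10 replication genes the mean was 2.37, 3.21 and 2.36 in group Sham, 2.78, 3.06 and 2.70 in group MI, and 2.51, 2.90 and 2.71 in group MI + DAPA (1st d). All 6 infarcted rats thus lay above Sham replicates 1 and 3 and below Sham replicate 2.

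**Figure D3:**
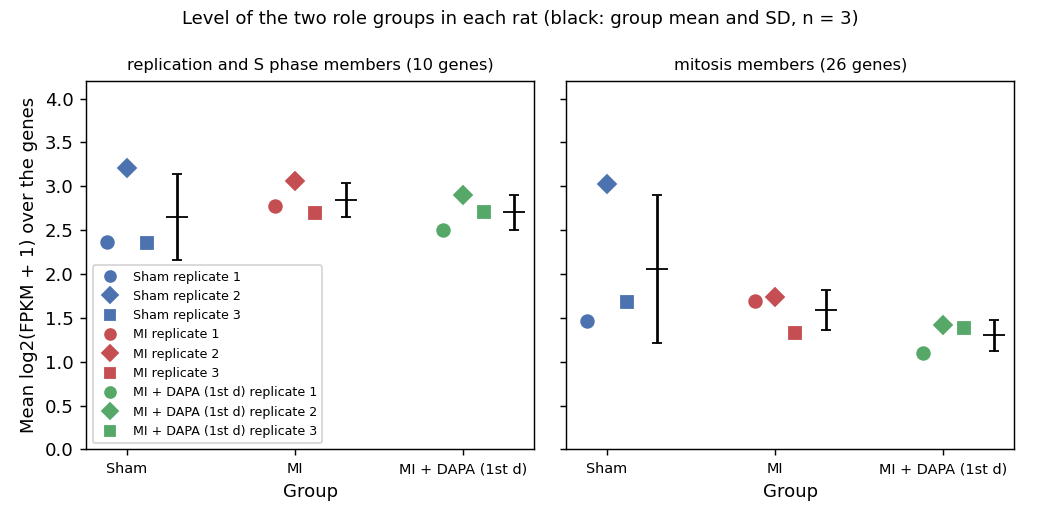
Mean log2(FPKM + 1) of the 10 replication and S phase genes (left) and the 26 mitosis genes (right) in each rat, with the group mean and SD in black (n = 3). Sham replicate 2 lies at 3.21 and 3.02, above every other rat in both panels.

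The first comparison was that of infarction with the sham operation. A gene was called when its limma p, unadjusted, was under 0.05 and its log2 fold change on log2(FPKM + 1) was over 1 in size. The study set the same cut-offs on results of DESeq2, so its calls and these are not like for like. Benjamini-Hochberg adjusted p-values over all genes tested stand beside the calls. The log2(FPKM + 1) scale understates the change of genes with low values. Of the 36 members, 32 were tested, having reached 1 FPKM in 3 or more of the 6 rats, and 27 of them did so in all 6. Bub1b, Kif11, Cenpe and Cenpf did not pass, and Kif2c passed only through the 3 rats of group Sham, so it had to be lower in group MI. In group MI, 1 of 32 members was higher (Rrm2), against 12.1% of the 13485 genes tested, and 2 were lower (Kif2c and Nusap1), against 10.3%. At an adjusted limma p under 0.05 with no fold threshold there were 2 members (Kif2c and Mcm7), against 39.0% of all genes, and without Sham replicate 2 there were 4, all higher. Of these 4, Rrm2 passed the filter there only through group MI, so it had to be higher. The 3 rats of group MI lay below all 3 of group Sham in 3 members (Mcm7, Kif2c and Nusap1), against 27.5% of genes, and above them in 0 members, against 27.1%.

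The median log2 fold change of the 32 members was -0.42, against -0.01 over all genes tested. Without Sham replicate 2 it was 0.14 over 31 members, against 0.02 over all genes, and the count of calls fell to 1. This was again Rrm2, whose direction the filter had fixed there. The count was also 1 without Sham replicate 3 or MI replicate 2, and 5 without Sham replicate 1. With values scaled to all recovered reads the median of all genes moved to 0.92 and that of the members to 0.49, so that the members' median changed sign but lay 0.43 below that of all genes, as it lay 0.41 below on the deposited scale. On that scale 5 of 33 members were called higher, all of replication, against 44.9% of all genes, and 28 of 33 values were above 0, against 88.2%. On the deposited scale 24 of 32 members had been below 0, against 50.3% of genes, and 12 of 31 were without Sham replicate 2. Mitosis genes had a median of -0.51 with 21 of 22 tested below 0, and of 0.09 with 9 of 21 below 0 without Sham replicate 2. Replication genes had a median of 0.19, and of 0.62 without Sham replicate 2.

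Among the genes of replication, Rrm2, the small subunit of ribonucleotide reductase, was at 0.163, 1.99 and 0 FPKM in group Sham, at 2.25, 5.70 and 1.25 in group MI, and at 0.878, 2.07 and 1.41 in group MI + DAPA (1st d). These values rest on 2, 24 and 0 reads in group Sham and on 51, 118 and 28 reads in group MI. Sham replicate 2 overlapped with group MI, in which MI replicate 2 was highest. The log2 fold change for MI vs. Sham was 1.27 ± 0.54 (SE), with a limma p of 0.0495 and an adjusted p of 0.101. It was 0.83 and no longer called without MI replicate 2. Nor was it called without MI replicate 1, Sham replicate 1 (1.08) or Sham replicate 3 (0.97), or with voom. With no filter on low values it was not called either, with a limma p of 0.068 and an adjusted p of 0.180. Without Sham replicate 2 it was 1.76 with an adjusted limma p of 0.0394. There Rrm2 passed the filter only through group MI, so it had to be higher. Fibroblast markers rose with it, 9 of 9 being called higher in group MI, as did 8 of 9 macrophage markers, against 12.1% of all genes. T cell markers and B and plasma cell markers were, like Rrm2, highest in MI replicate 2. The part of these cells in the level of Rrm2 was not tested.

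Mcm4, a subunit of the replicative helicase, was at 3.20, 4.87 and 2.18 FPKM in group Sham, 5.83, 6.31 and 4.86 in group MI, and 4.32, 4.92 and 4.09 in group MI + DAPA (1st d). Only Sham replicate 2 reached the lowest rat of group MI. The log2 fold change for MI vs. Sham was 0.63 ± 0.25 (SE), under the fold threshold, with a limma p of 0.0384 and an adjusted p of 0.0836. Mcm7, from the same helicase ring, was at 16.3, 20.2 and 15.5 FPKM in group Sham, 12.3, 12.3 and 12.1 in group MI, and 11.2, 17.0 and 13.4 in group MI + DAPA (1st d). Here every rat of group MI lay below every rat of group Sham, at a log2 fold change of -0.46 ± 0.15 (SE) with an adjusted limma p of 0.0446, or 0.0914 without Sham replicate 2.

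The other subunits Mcm2, Mcm3, Mcm5 and Mcm6 had log2 fold changes of 0.43, 0.26, 0.11 and 0.01 and overlapped between the groups. Without Sham replicate 2 the values of Mcm2, Mcm3 and Mcm4 were 0.75, 0.73 and 0.86, those of Mcm3 and Mcm4 with adjusted limma p-values of 0.0382 and 0.0277, but none reached the fold threshold. Tyms, which makes thymidylate, had 0.60, and 0.99 with an adjusted limma p of 0.0348 without that rat. Pcna, by far the most abundant member at 39.0 to 53.9 FPKM, had -0.17, and Ccne2, a cyclin of the G1/S transition, had -0.71. Mcm4 and Mcm7 thus had opposite signs, each at an unadjusted limma p under 0.05. Scaled to all recovered reads, where all genes moved up together, Mcm4 lay 0.56 above the median of all genes and Mcm7 0.34 below it, and the median of the 10 replication genes lay 0.13 above it.

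Among the mitotic cyclins and their kinase, Cdk1 was at 4.88, 22.7 and 3.30 FPKM in group Sham, 6.01, 5.90 and 3.14 in group MI, and 1.85, 2.12 and 3.09 in group MI + DAPA (1st d). Sham replicate 2 rests on 329 reads, against 72 and 41 in the other 2 rats of group Sham. For MI vs. Sham the log2 fold change was -0.53 ± 0.61 (SE), with a limma p of 0.418, and it was 0.22 without Sham replicate 2. Ccna2 (cyclin A2) was at 1.94, 9.44 and 1.39 FPKM in group Sham, 2.63, 3.16 and 1.19 in group MI, and 1.46, 1.77 and 1.57 in group MI + DAPA (1st d). Ccnb1 (cyclin B1) was at 1.84, 8.19 and 1.48 FPKM in group Sham, 2.55, 3.49 and 2.05 in group MI, and 2.30, 1.94 and 2.07 in group MI + DAPA (1st d). In all 3 genes Sham replicate 2 was alone at the top. The other 8 rats lay at 1.19 to 3.16 FPKM in Ccna2 and at 1.48 to 3.49 in Ccnb1. In Cdk1 they lay at 1.85 to 6.01 FPKM, with every DAPA-treated rat below every rat of both other groups. The log2 fold changes of Ccna2 and Ccnb1 for MI vs. Sham were -0.38 and -0.14, and both were positive, at 0.28 and 0.46, without that rat.

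The mitotic kinases and the chromosomal passenger complex, which corrects wrong attachments of chromosomes, had no called member of 6 in MI vs. Sham. Birc5 (survivin), a subunit of that complex, was at 3.39, 11.8 and 4.16 FPKM in group Sham, 3.91, 4.22 and 2.09 in group MI, and 1.53, 2.21 and 3.17 in group MI + DAPA (1st d). Pbk, a mitotic protein kinase, was at 0.679, 9.90 and 1.92 FPKM in group Sham, 1.39, 1.42 and 0.428 in group MI, and 0.199, 1.09 and 0.876 in group MI + DAPA (1st d). Aurka, the Aurora kinase of the spindle poles, was at 2.31, 6.28 and 5.10 FPKM in group Sham, 3.45, 3.17 and 2.94 in group MI, and 2.49, 4.91 and 2.91 in group MI + DAPA (1st d). Group MI and group Sham overlapped in each of the 3. Their log2 fold changes for MI vs. Sham were -0.62, -0.90 and -0.34, and -0.15, -0.13 and -0.10 without Sham replicate 2. Plk1, Aurkb and Cdca8 had -0.53, -0.57 and -0.31, with limma p-values of 0.373, 0.370 and 0.388.

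For the spindle checkpoint and the anaphase-promoting complex, none of the 4 members tested was called. Bub1, a checkpoint kinase, was at 2.02, 5.33 and 2.35 FPKM in group Sham, 2.40, 1.60 and 1.35 in group MI, and 1.05, 1.94 and 1.45 in group MI + DAPA (1st d). Cdc20, which activates the complex, was at 3.36, 16.5 and 3.32 FPKM in group Sham, 4.09, 3.15 and 2.17 in group MI, and 1.58, 2.56 and 2.57 in group MI + DAPA (1st d). Ube2c, its ubiquitin-conjugating enzyme, was at 1.65, 7.67 and 1.18 FPKM in group Sham, 1.86, 2.01 and 1.08 in group MI, and 0.942, 0.752 and 1.18 in group MI + DAPA (1st d). In Bub1 and Cdc20 every DAPA-treated rat lay below every rat of group Sham, and Ube2c overlapped. Their log2 fold changes for MI vs. Sham were -0.54, -0.77 and -0.49, and Cdca3 had 0.06.

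The 2 lower calls belonged to the kinesins and spindle proteins. Kif2c, a kinesin that takes microtubules apart at the centromere, was at 1.81, 3.46 and 3.17 FPKM in group Sham, 0.803, 0.800 and 0.809 in group MI, and 0.439, 0.880 and 0.991 in group MI + DAPA (1st d). All 6 infarcted rats lay below all 3 of group Sham, but with no infarcted rat at 1 FPKM the filter had fixed this. Unlike in most members, the high level of Kif2c did not rest on Sham replicate 2 alone. The log2 fold change for MI vs. Sham was -1.05 ± 0.23 (SE), with an adjusted limma p of 0.0127, or 0.0323 with no filter on low values, but without Sham replicate 2 only 2 rats reached 1 FPKM and it was not tested. Scaled to all recovered reads, the value was -0.37 and not called.

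Nusap1, which bundles spindle microtubules, was at 2.09, 7.57 and 2.62 FPKM in group Sham, 1.53, 1.02 and 0.843 in group MI, and 0.980, 1.08 and 1.13 in group MI + DAPA (1st d). Again every infarcted rat lay below every rat of group Sham. Its log2 fold change was -1.12 ± 0.39 (SE) with a limma p of 0.0247 and an adjusted p of 0.0596, -0.66 and not called without Sham replicate 2, and -0.39 and not called when scaled to all recovered reads. Prc1, the bundler of the midzone in cytokinesis, was at 3.20, 20.7 and 5.97 FPKM in group Sham, 4.63, 3.25 and 2.90 in group MI, and 2.86, 2.36 and 2.81 in group MI + DAPA (1st d). Its MI vs. Sham value was -0.92, and -0.25 without Sham replicate 2. The remaining members of the group, Kif20a, Kif23, Tpx2 and Hmmr, had values of -0.45, -0.45, -0.26 and -0.10.

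Of the proteins of chromosome structure, Mki67, the proliferation marker Ki-67 that coats mitotic chromosomes, was at 2.66, 12.2 and 3.72 FPKM in group Sham, 2.34, 3.01 and 1.44 in group MI, and 1.50, 1.42 and 2.36 in group MI + DAPA (1st d). Its value in Sham replicate 2 rests on 1237 reads. Top2a, the topoisomerase that untangles sister chromatids, was at 1.85, 5.87 and 1.97 FPKM in group Sham, 2.76, 3.54 and 1.90 in group MI, and 1.25, 2.12 and 2.22 in group MI + DAPA (1st d). Their MI vs. Sham log2 fold changes were -0.93 and -0.08, and -0.38 and 0.34 without Sham replicate 2. Bub1b, Kif11, Cenpe and Cenpf, which were not tested, were at 0.420 to 1.63 FPKM in group MI, and at 1.83 to 3.07 in Sham replicate 2.

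**Figure D4:**
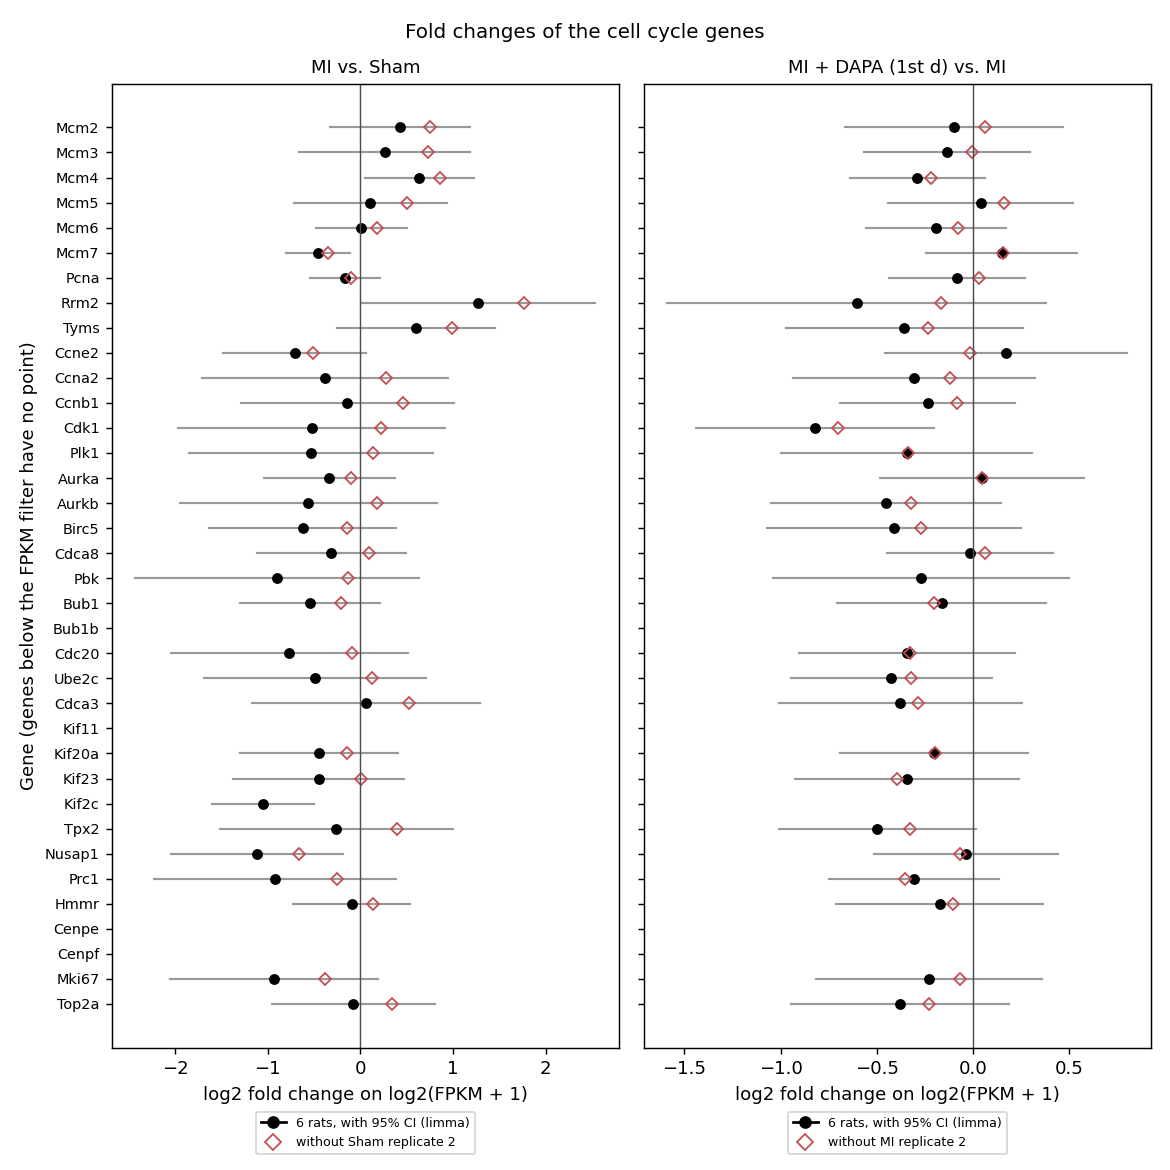
Log2 fold changes on log2(FPKM + 1) for MI vs. Sham (left) and MI + DAPA (1st d) vs. MI (right), black points with 95% confidence intervals from limma, and open diamonds without Sham replicate 2 (left) or MI replicate 2 (right). On the left the diamonds of mitosis genes gather around 0 (median 0.09), and on the right 27 of 31 black points are below 0.

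The question of the second comparison was what DAPA given from the first day changed after infarction. Of 31 members tested, 24 reached 1 FPKM in all 6 rats, and Kif2c, Bub1b, Kif11, Cenpe and Cenpf were not tested. No member was called higher (0.951% of 13251 genes) or lower (1.11%), and none passed an adjusted limma p of 0.05 (0.00% of genes). At an unadjusted limma p under 0.05 with no fold threshold 1 member was lower, Cdk1, against 3.90% of genes, and 0 were higher, and without MI replicate 2 there was none in either direction. The log2 fold change was below 0 in 27 of 31 members, against 52.8% of genes, and in 24 of 30 without MI replicate 2. Every DAPA-treated rat lay below every rat of group MI in 3 members tested (Cdk1, Tpx2 and Prc1), against 7.16%. The median of the members was -0.27, against -0.02 over all genes, and it was -0.18 without MI replicate 2 and -0.41, against -0.21, when scaled to all recovered reads.

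Cdk1 had the largest difference, a log2 fold change of -0.82 ± 0.26 (SE) with a 95% interval of -1.44 to -0.20, a limma p of 0.0164 and an adjusted p of 0.558. The highest DAPA-treated rat, at 3.09 FPKM, lay just below the lowest rat of group MI, at 3.14 FPKM, so the groups were apart by less than the counting error of the 79 and 85 reads behind these values. Without MI replicate 2 the value was -0.70 with a limma p of 0.0511. It passed the fold threshold with a pseudocount of 0.1 (-1.04), with voom on recovered reads (-1.04) and when scaled to all recovered reads (-1.03).

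Tpx2, a spindle assembly factor, and Prc1 had log2 fold changes of -0.50 and -0.31, with intervals of -1.01 to 0.02 and -0.75 to 0.14. Among the mitosis genes tested, 20 of 21 were below 0 with a median of -0.31, only Aurka, at 0.05, being above 0, and 18 of 20 were below 0 without MI replicate 2. The largest negative values after Cdk1 and Tpx2 among them were -0.45 (Aurkb), -0.42 (Ube2c) and -0.41 (Birc5), each with an interval that included 0. Replication genes had a median of -0.12 with 7 of 10 below 0, from -0.60 (Rrm2) to 0.17 (Ccne2), and the median was -0.01 with 6 of 10 below 0 without MI replicate 2.

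Other cell markers differed between the same rats. Of the erythroid markers 3 of 4 were called lower in the DAPA-treated rats, against 1.11% of all genes, with MI + DAPA (1st d) replicate 1 at 13.2 summed FPKM. That rat was also the lowest of the 3 DAPA-treated rats in 27 of 36 cell cycle genes, against 31.8% of all genes. T cell markers were called lower in 2 of 7 tested (summed FPKM 35.0 to 68.0 against 64.0 to 274.9). Macrophage markers were called lower in 0 of 9 (428.7 to 942.0 against 807.7 to 1547) and fibroblast markers in 1 of 9 (2599 to 4497 against 4108 to 7995). B and plasma cell markers summed to 6.44 to 10.5 FPKM after DAPA, against 25.3, 3108 and 541.9 in MI replicates 1, 2 and 3. Neutrophil markers overlapped, at 17.4 to 69.1 summed FPKM in group MI. MI + DAPA (1st d) replicate 1 was the highest of both groups there, at 172.8, and replicate 2 of that group was the lowest. Cardiomyocyte markers were called higher in 2 of 9, against 0.951% of all genes. Without MI replicate 2 these calls were 0 of 3 erythroid, 1 of 7 T cell, 0 of 9 fibroblast and 0 of 9 cardiomyocyte markers. The share of mitochondrial reads was higher in 2 of the 3 DAPA-treated rats than in any rat of group MI. Whether these differences play a part in the lower values of the cell cycle genes was not tested.

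The third comparison, MI + DAPA (1st d) vs. Sham, shares its rats with the other comparisons and is given for its own values. Of 32 members tested, 23 reached 1 FPKM in all 6 rats, and Kif2c again passed only through group Sham. None was higher, against 9.54% of 13359 genes, and 4 were lower (Mki67, Nusap1, Kif2c and Birc5), against 8.16%. At an adjusted limma p under 0.05 there was 1 (Kif2c, -1.09, adjusted p of 0.0223), against 28.6% of genes, but the filter had fixed its direction, and with no filter its adjusted limma p was 0.0505 and no member passed. The log2 fold changes of Mki67, Nusap1 and Birc5 were -1.16, -1.15 and -1.03, with adjusted limma p-values of 0.0953, 0.0573 and 0.0998. In these 4 genes, which the same values had picked as lower, every DAPA-treated rat lay below every rat of group Sham. This is therefore no further support. The share of all genes separated in this way from group Sham was not counted, which also limits the like statements on Cdk1, Bub1 and Cdc20 above. Without Sham replicate 2, 0 of 29 members were called by limma, with Mcm3 and Mcm4 higher and Nusap1 lower at an unadjusted p under 0.05. Without Sham replicate 1 the count was 9, without MI + DAPA (1st d) replicate 1 it was 1 and without replicate 2 of that group it was 2. With Sham replicate 2 left out, Mki67, Nusap1 and Birc5 were at -0.61, -0.70 and -0.56. Cdk1, at -1.35 with a limma p of 0.0505, missed the threshold, and was at -0.60 without that Sham rat. Scaled to all recovered reads none of the 4 lower calls was left (Mki67 -0.49, Nusap1 -0.55, Kif2c -0.52 and Birc5 -0.34, with the median of all genes at 0.74), and 1 member of 31 was called higher (Mcm2), against 33.8% of genes.

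Other genes of the cell cycle were 93 from 5 lists, of which 91 had a row. Without Sham replicate 2, 2 of 57 tested were higher and 2 lower in MI vs. Sham. With all 6 rats, 1 of 61 tested was higher and 3 were lower, against 12.1% and 10.3% of all genes. The higher one, Ccnd2 (cyclin D2, which drives G1 with Cdk4 and Cdk6), was at 3.92, 3.79 and 5.54 FPKM in group Sham, 23.3, 27.8 and 21.2 in group MI, and 13.8, 13.1 and 26.6 in group MI + DAPA (1st d). All 6 infarcted rats lay above all 3 of group Sham, with a log2 fold change of 2.22 ± 0.19 (SE) for MI vs. Sham and an adjusted limma p of 0.000953, and 2.14 without Sham replicate 2. Ccnd2 was -0.48 for MI + DAPA (1st d) vs. MI, with a limma p of 0.127. Cdk2, the kinase of the G1/S transition, went the other way at 9.45, 13.8 and 10.1 FPKM in group Sham and 6.11, 6.43 and 4.64 in group MI, a log2 fold change of -0.84 under the fold threshold with an adjusted limma p of 0.0151.

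The 3 lower genes, Orc5, Orc2 and Orc4, encode subunits of the origin recognition complex, which marks where replication starts. Orc5 was at 15.4, 21.0 and 13.8 FPKM in group Sham, 5.25, 5.92 and 6.49 in group MI, and 5.33, 8.04 and 5.94 in group MI + DAPA (1st d). Orc2 was at 14.1, 19.7 and 14.3 FPKM in group Sham, 5.89, 5.82 and 7.29 in group MI, and 5.34, 8.18 and 5.83 in group MI + DAPA (1st d). In both genes all 6 infarcted rats lay below all 3 of group Sham. The log2 fold changes for MI vs. Sham were -1.35 (Orc5), -1.21 (Orc2) and -1.05 (Orc4), with adjusted limma p-values of 0.00264, 0.00333 and 0.00561, and they were -1.18, -1.06 and -0.90 without Sham replicate 2, so that Orc4 missed the fold threshold. Scaled to all recovered reads none of the 3 was called, at -0.34, -0.20 and -0.07, with the median of all genes at 0.92. On that scale 4 of 25 genes of this list were called higher, against 44.9% of all genes, and 0 lower.

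In the list of CDK inhibitors and pocket proteins none of 6 was called. Cdkn1c (p57) was at 5.05, 4.34 and 3.78 FPKM in group Sham, 6.64, 12.7 and 9.45 in group MI, and 5.73, 6.49 and 5.50 in group MI + DAPA (1st d). Every rat of group MI lay above all others, with a log2 fold change of 0.94 for MI vs. Sham, under the fold threshold, with an adjusted limma p of 0.0202, and of -0.58 for MI + DAPA (1st d) vs. MI with a limma p of 0.0364 and an adjusted p of 0.558. Rb1, the retinoblastoma protein, had -0.32 for MI vs. Sham with a limma p of 0.153. Among transcription factors of the cell cycle, E2f2 had 0.65 and Foxm1, the activator of mitosis genes, had -0.47, and neither was called.

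E2f5, a repressor of the E2F family, was the only 1 of 57 other cell cycle genes called in MI + DAPA (1st d) vs. MI. It was called lower, as were 1.11% of all genes. It was at 7.16, 3.46 and 6.16 FPKM in group Sham, 5.97, 4.52 and 5.76 in group MI, and 2.87, 0.921 and 2.83 in group MI + DAPA (1st d). All DAPA-treated rats lay below the other 6, with a log2 fold change of -1.06 ± 0.30 (SE), a limma p of 0.0094 and an adjusted p of 0.558, and it was not called without MI + DAPA (1st d) replicate 2. E2f5 also differed from the members in Sham replicate 2, where it was lowest of group Sham. The other mitosis genes had no call among 16 tested in MI vs. Sham, with -0.91 for Cdkn3 and -0.47 for Ndc80, and their median moved from -0.30 to 0.25 without Sham replicate 2.

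Outside all lists, the genes whose log2(FPKM + 1) followed the mean of the members most closely over the 9 rats were Nasp, a histone chaperone (Pearson r = 0.98), Rbm3 (0.97), Gtse1 (0.96), Kdm6a (0.96) and Ctr9 (0.95), out of 12842 genes compared. Without Sham replicate 2 their r over 8 rats was 0.85, 0.88, 0.70, 0.71 and 0.79, so part of the likeness is that rat. Nasp was at 8.69, 15.3 and 9.05 FPKM in group Sham, 8.69, 10.6 and 8.18 in group MI, and 7.88, 9.24 and 8.35 in group MI + DAPA (1st d). None of the 5 was called in any of the 3 comparisons.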

How the data were processed

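Values were deposited by the authors as FPKM in a table of 9 columns, each a rat, and so already carry a scaling to gene length and library size. The submitters' processing notes name HISAT2 2.0.5, StringTie 1.3.3b and featureCounts 1.5.0-p3, and the genome build is not given in the sources used here. Libraries were poly-A selected. Whole reads were recovered from the FPKM steps for 18896 of 18896 genes seen in at least 4 libraries (tolerance 0.02 reads), and in simulated data 99.8% of 19889 genes came back exactly. Read numbers bear on counting error only. The intervals given for log2 fold changes came from limma and measure the spread between rats. Where a gene name repeated, the row with the highest mean was taken.

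limma 3.58.1 (R 4.3.3) with a mean-dependent prior was fitted to log2(FPKM + 1) for the 2 groups compared, over genes that reached 1 FPKM in 3 or more of 6 rats. In simulated MI vs. Sham data, 94.2% of 189 genes changed 4-fold among 13683 tested were called, as were 62 unchanged genes. The spread between rats was set alike for every gene (dispersion 0.1), and the changed genes were drawn from those with more reads. This share therefore does not carry over to the members. P-values measure the spread between the rats labelled as separate replicates. Members and lists were chosen with earlier results of these data known, and the markers and other cell cycle lists are standard names. Values in every rat are given for the 3 members with the smallest MI vs. Sham p in each role group, and for members called in either DAPA comparison; from each other list the 2 genes with the smallest p and those called in MI + DAPA (1st d) vs. MI are named, and other genes were named after their values were seen. Alternatives were another pseudocount (0.1), other filters, scalings and fits, a replicate block, voom on recovered reads, and each rat left out. Python 3.11.15 with pandas 2.3.3, numpy 2.4.6 and matplotlib 3.10.9 was used.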

Additional observations from a re-analysis of the deposited data

How the results depend on the processing

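Group sizes of 3 rats and low FPKM limit these results. Members called in MI vs. Sham were 3 (1 higher and 2 lower), and 5 when scaled to all recovered reads (all higher), 5 without a fold threshold, 1 by adjusted p, and 1 to 5 with single rats left out (1 without Sham replicate 2, Sham replicate 3 or MI replicate 2, 5 without Sham replicate 1). Other cell cycle genes called there were 4, and 17 of 69 when scaled (all higher, against 44.9% of all genes). They were 13 without a fold threshold, and 4 to 7 with single rats left out. The members' median was -0.42, and 0.49 when scaled and -0.64 to 0.14 with single rats left out. In MI + DAPA (1st d) vs. MI the count of 0 became 1 (Cdk1) with a pseudocount of 0.1, when scaled, with voom and without a fold threshold, and was 0 to 1 with single rats left out (1 without MI replicate 3). The 1 other gene became 2 with a pseudocount of 0.1 or voom, 0 by adjusted p, 5 without a fold threshold, and 0 to 1 with single rats left out (0 without MI + DAPA (1st d) replicate 2); the median was -0.40 to -0.18. In MI + DAPA (1st d) vs. Sham the 4 members became 7 with all 9 rats in 1 fit or with voom, 2 without a filter, 1 by adjusted p, and 1 when scaled (Mcm2, higher, with all 4 lower calls lost), and 0 to 9 with single rats left out (0 without Sham replicate 2, 1 and 2 without MI + DAPA (1st d) replicates 1 and 2, 9 without Sham replicate 1). The 6 other genes (5 lower) became 8 of 55 when scaled (all higher, against 33.8% of all genes). They became 10 with voom and 15 without a fold threshold, and 4 to 8 with single rats left out. The median of -0.59 became 0.10 when scaled, and -0.91 to -0.18 with single rats left out. The cause of these shifts was not tested.

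With the replicate number as a replicate block, members called were 3, 0 and 9 in the 3 comparisons, in the order above. The numbers share no animal, and deviations of same-numbered rats correlated by -0.01 to 0.07, -0.32 to 0.03 and -0.01 to 0.20, so the rats were not treated as pairs.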
